A study of Mus musculus with 6 samples.

Results

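Genes of the trophoblast lineage were measured in wild-type mouse embryonic stem (ES) cells and in ES cells without 3 linker histones. The genes were Cdx2, Eomes, Hand1, Tpbpa, Prl3d1, Esx1, Tfap2c and Plac1, and they were found by gene symbol, current or older, in the annotation of the array. Of these 8 genes, 7 were listed with a probe set of their own, a set of short probes designed to read a transcript. They are 7 of the 8251 genes so listed, and had 10 of the 12488 probe sets in the table. No probe set was listed with Prl3d1, which is not analysed here, and no probe set listed with several genes named a member.

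The arrays were Affymetrix arrays hybridised with biotin-labelled RNA from exponentially growing cells. Wild-type ES cells and 2 lines null for the linker histone genes H1c, H1d and H1e (now H1f2, H1f3 and H1f4) were each measured on 2 arrays, numbered experiment 1 and experiment 2. No further allele, agent or strain is given for any of the 3 lines. There was 1 wild-type line, so genotype and line cannot be told apart where both null lines differ from it, and whether the duplicate arrays stand for different cultures is not stated. The p-values therefore cover the variation among these arrays alone, part or all of which may be technical.

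The trophoblast is the first lineage to leave the embryo proper and forms the placenta. Its stem cells are kept by transcription factors such as Cdx2, Eomes and Tfap2c, and they give rise to giant cells, which need Hand1, to the spongiotrophoblast, which expresses Tpbpa, and to the labyrinth, where Esx1 acts. ES cells derive from the other early lineage and hold this programme down through factors such as Pou5f1, which opposes Cdx2. Linker histones bind nucleosomes and compact chromatin. The comparison asks whether genes of a lineage that ES cells do not normally enter differ in level when these linker histones are missing.

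The deposited values are signals in intensity units, scaled to a common level on every array. The median signal of the arrays lay between 34.2 and 39.8, and the background was taken as the highest of 19 bacterial and yeast control probe sets on each array, between 9.1 and 17.2. H1f2 measured 69.1 ± 1.27 (SD, n = 2) in wild-type and 12.5 ± 1.51 (SD, n = 4) in null cells. Pou5f1 and Nanog, chosen after their values were seen, were above background on all 6 arrays, at 1530 ± 6.43 and 1330 ± 58.7 (SD, n = 2) in wild-type cells and 1670 ± 121 and 1250 ± 111 (SD, n = 4) in null cells. Signals of different probe sets depend on their probes, so no member is ranked against another.

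Cdx2, a homeobox factor that starts the trophoblast programme, was below background on all 6 arrays. It measured 5.9 and 6.1 in wild type, 10.1 and 7 in null line 1, and 1.4 and 6.7 in null line 2. Both line 1 signals lay above all others, and those of line 2 lay on either side of wild type. Since every line was at background no fold is given. Elf5, a factor that locks in trophoblast stem cell identity, was also at background on all arrays, with means of 2.7 ± 1.27 (SD, n = 2) in wild-type and 3 ± 3.36 (SD, n = 4) in null cells.

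Tpbpa, a marker of the spongiotrophoblast, was above background on 3 of the 6 arrays, which were the 3 arrays of experiment 1. There it measured 18.2 in wild type, 13.8 in line 1 and 25.2 in line 2. On the arrays of experiment 2 it measured 7.9, 7.2 and 5.3 in the same order. The signal of Tpbpa therefore separated the experiments and not the lines. All 3 signals of experiment 2 were below the background of their arrays, so no fold between the experiments is given. Of all 12422 probe sets other than controls, 11.8% were higher in experiment 1 within each of the 3 lines, and 14.5% were lower. That pattern is looser than that of Tpbpa, whose experiment 1 signals all lay above its experiment 2 signals. The share with such full separation was not counted.

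The windows before the start sites of Cdx2 and Tpbpa are shown because both genes read at or near background in these cells while the sequences differ in their CG dinucleotides, the sites of DNA methylation. Each window holds the 250 bases before the start site from RefSeq (GRCm38.p6), printed 5' to 3' on the strand of the gene, with every CG in capitals. The Cdx2 window lies on the minus strand at chr5:147307250-147307499 and the Tpbpa window on the minus strand at chr13:60941937-60942186.
Cdx2: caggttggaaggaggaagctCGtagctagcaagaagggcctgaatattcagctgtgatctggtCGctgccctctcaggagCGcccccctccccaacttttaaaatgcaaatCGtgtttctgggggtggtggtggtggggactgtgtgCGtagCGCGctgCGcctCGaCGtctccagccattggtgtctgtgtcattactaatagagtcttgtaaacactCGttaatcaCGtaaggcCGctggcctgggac
Tpbpa: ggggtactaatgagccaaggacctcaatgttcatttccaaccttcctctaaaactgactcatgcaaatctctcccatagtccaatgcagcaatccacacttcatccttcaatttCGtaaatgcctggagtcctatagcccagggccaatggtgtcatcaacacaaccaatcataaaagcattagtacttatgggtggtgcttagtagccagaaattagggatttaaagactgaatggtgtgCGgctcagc
Cdx2 had 13 CG dinucleotides and Tpbpa 2. RefSeq windows were found for 5 of the 7 member genes, and none for Hand1 and Tfap2c. Esx1 had 24, Eomes 8, and the 2 start sites of Plac1 had 2 and 4. Of 32851 such windows, 92.1% held at least 1 CG, the median was 6, 31.5% held at least as many as Cdx2 and 81.2% at least as many as Tpbpa. CG reads the same on both strands. The count describes these letters, and methylation was not measured here.

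**Figure D1:**
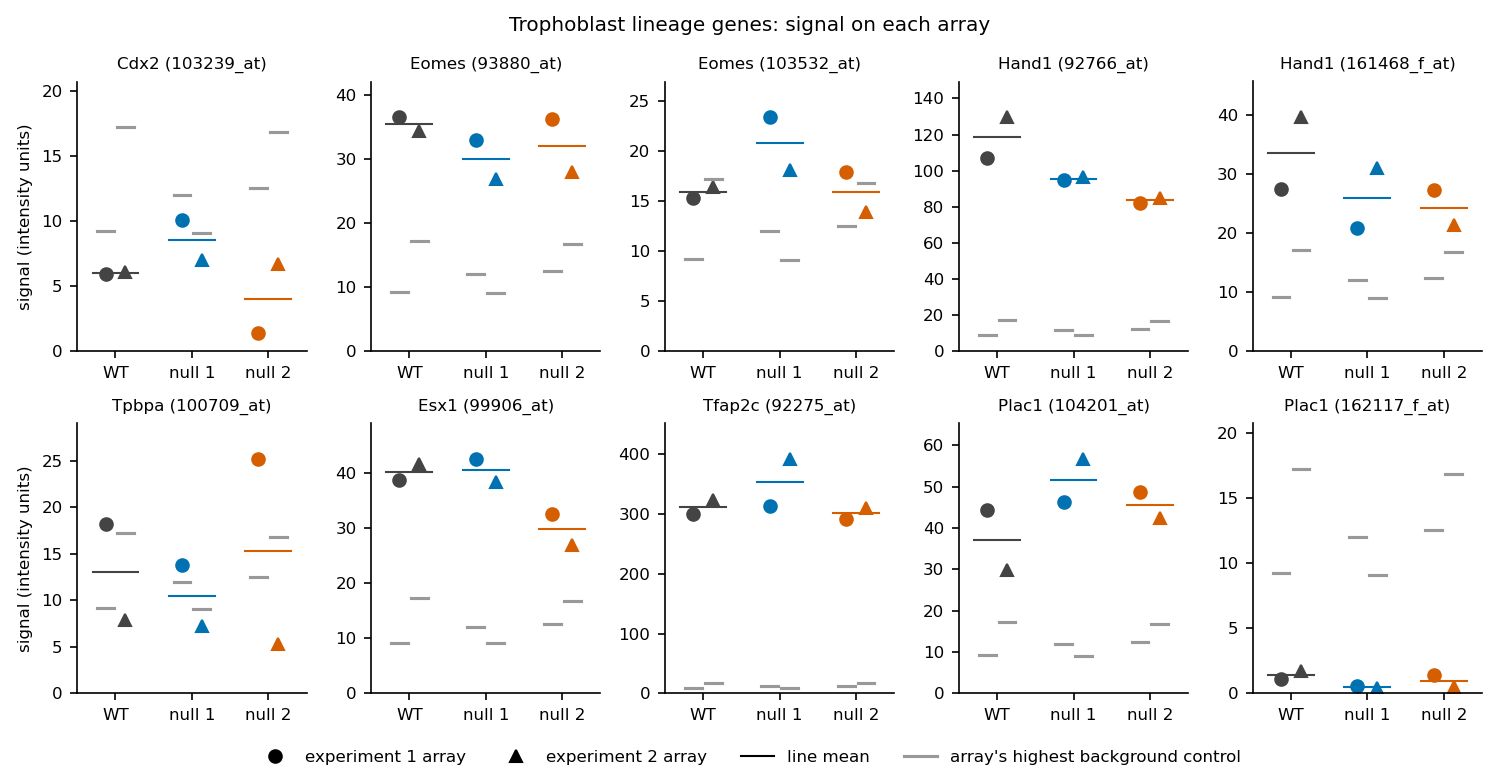
Signal in intensity units (linear axes from 0) of the 10 probe sets on each of the 6 arrays, with circles for experiment 1, triangles for experiment 2, a coloured line for the mean of each line and a grey bar for the highest background control of the array. Cdx2 lies below background throughout, Tpbpa is above it on the experiment 1 arrays, and the Hand1 probe set 92766_at is lower on all 4 null arrays than on both wild-type arrays.

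Eomes, a T-box factor needed by trophoblast stem cells and also active in the primitive streak, was read by a pair of probe sets. Probe set 93880_at was above background on all arrays, at 36.6 and 34.3 in wild type, 33 and 26.9 in line 1 and 36.2 and 28 in line 2. The null arrays overlapped the wild-type arrays, with 3 of 4 below both. The log2 difference between the null average and wild type was -0.19 ± 0.15 (SE, limma adjusted p = 0.637). Probe set 103532_at was above background on 4 of 6 arrays and measured 15.3 and 16.4 in wild type, 23.4 and 18.1 in line 1 and 17.9 and 13.9 in line 2. Its mean over all arrays of 17.5 lay below the filter of 20.9, so it was not tested, and its null mean was the higher one, 18.3 against 15.8, opposite to the first probe set.

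Tfap2c, an AP-2 factor of trophoblast stem cells that germ cell precursors also express, was far above background on every array. It measured 299.8 and 324.5 in wild type, 313.6 and 392.8 in line 1, and 292 and 310.7 in line 2. The highest value was the experiment 2 array of line 1, and wild type overlapped both null lines. The log2 difference of the null average was 0.06 ± 0.13 (SE, limma adjusted p = 0.892), and its 95% interval ran from 0.833-fold to 1.3-fold.

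Hand1, a basic helix-loop-helix factor that drives giant cell formation and is also used in mesoderm and heart, was lower on every null array than on both wild-type arrays with its brighter probe set. Probe set 92766_at measured 107.3 and 129.9 in wild type, 94.8 and 96.4 in line 1 and 82.3 and 84.9 in line 2. The lines did not overlap, with wild type highest and line 2 lowest. Of the 7453 probe sets tested, 12.0% had all 4 null arrays below both wild-type arrays, so this pattern is common in these data. The wild-type mean was 119 ± 16 (SD, n = 2) and the null mean 89.6 ± 7.04 (SD, n = 4). The log2 difference was -0.39 ± 0.12 (SE), with a 95% interval from -0.69 to -0.1, and it did not pass (limma unadjusted p = 0.0169, adjusted p = 0.28).

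The other Hand1 probe set, 161468_f_at, of a class whose probes can share sequence with related transcripts, measured 27.5 and 39.7 in wild type, 20.9 and 31.1 in line 1 and 27.3 and 21.3 in line 2. Here the groups overlapped, with 3 of 4 null arrays below both wild-type arrays. The log2 difference was -0.38 ± 0.22 (SE, limma adjusted p = 0.518), and it rested on which wild-type array was used: it was -0.63 without that of experiment 1 and -0.14 without that of experiment 2.

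Esx1, an X-linked homeobox gene of the labyrinth, had its lowest signals in null line 2. It measured 38.7 and 41.6 in wild type, 42.5 and 38.3 in line 1, and 32.5 and 26.9 in line 2. Line 1 overlapped wild type, whereas both arrays of line 2 were below all other arrays. The log2 difference of line 2 from wild type was -0.41 ± 0.14 (SE, limma unadjusted p = 0.0286, adjusted p = 0.298), that of line 1 was 0.01 ± 0.14 (SE, adjusted p = 0.99), and line 1 lay above line 2 by 0.42 ± 0.14 (SE, unadjusted p = 0.0267, adjusted p = 0.628). None of these passed.

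Plac1, an X-linked gene of trophoblast cells, was higher on 3 of 4 null arrays than on both wild-type arrays. Probe set 104201_at measured 44.5 and 29.9 in wild type, 46.4 and 56.8 in line 1 and 48.7 and 42.5 in line 2. The groups overlapped, and the lowest value was the experiment 2 array of wild type. The log2 difference of the null average was 0.38 ± 0.19 (SE, limma adjusted p = 0.45). Without the wild-type array of experiment 2 it was 0.11, and without that of experiment 1 it was 0.65. The other probe set, 162117_f_at, was below background on all arrays, between 0.4 and 1.7.

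Across the members, 6 probe sets of 5 genes passed the filter on dim signals and 4 did not. No member passed an adjusted p of 0.05 in any comparison with limma. In the null average against wild type 0 of 6 passed, beside 0.456% of all 7453 probe sets, and 1 of 6 had an unadjusted p under 0.05 (Hand1 92766_at), beside 12.7%. Against wild type, 0 of 6 passed in line 1, beside 0.134%, and 0 of 6 in line 2, beside 0.322%. Between the null lines, 0 of 6 passed, beside 0.0268%. At an unadjusted p under 0.05 the counts were 0 in line 1 (9.5% of all), 2 in line 2 (Hand1 92766_at and Esx1, 14.1% of all) and 1 between the lines (Esx1, 7.54% of all).

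The members did not share a direction. Of the 6 tested probe sets 2 had positive and 4 negative differences in the null average, between -0.39 and 0.38, with a median of -0.19. Over all probe sets tested the median was -0.015 and 52.7% were negative. In line 1 the median of the members was -0.11 with 3 positive and 3 negative (52.6% of all negative), and in line 2 it was -0.28 with 1 positive and 5 negative (51.8% of all negative). Both lines were set against the same wild-type arrays. Line 1 was above line 2 for 5 of 6 probe sets, with a median of 0.18, while 51.2% of all probe sets were lower in line 1 than in line 2.

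**Figure D2:**
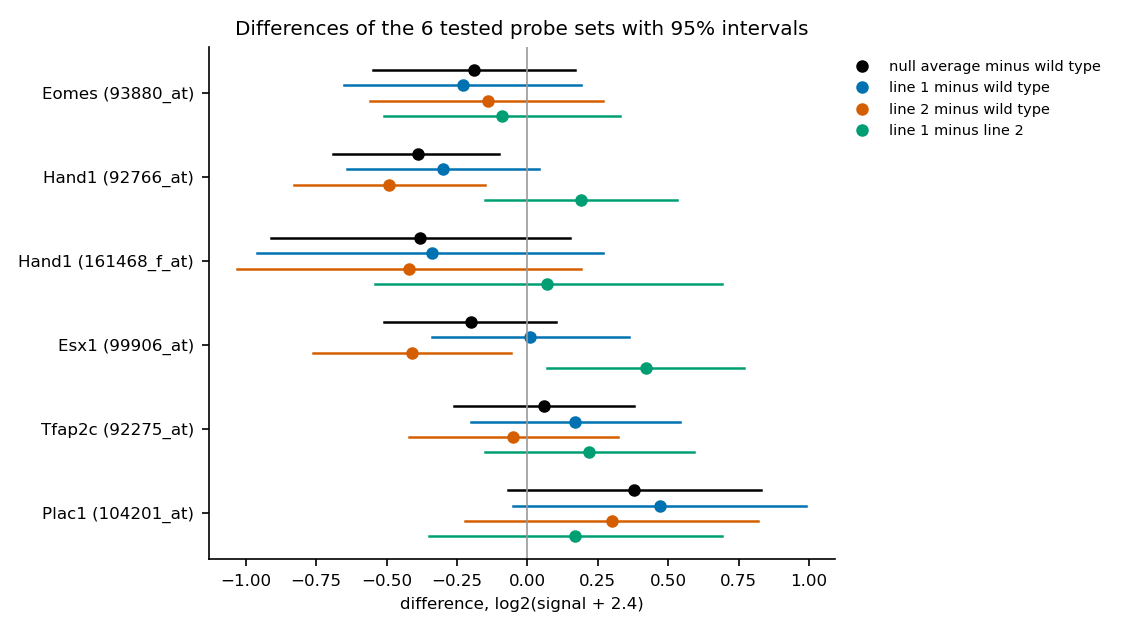
Differences on the log2(signal + 2.4) scale of the 6 tested probe sets in the 4 comparisons, as points with 95% intervals from the limma fit, unadjusted for the number of probe sets. The interval of the null average lies below 0 for Hand1 92766_at (-0.69 to -0.1) and spans 0 for the other 5.

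Further genes of the trophoblast were described in 3 lists. Over all probe sets tested, 52.7% of differences in the null average were negative, which is the share to set beside each list. Among regulators of trophoblast stem cells, 16 were on the array, 13 were tested, and none rose or fell, with 6 positive and 7 negative differences and a median of -0.15. Of the 16, 14 were above background on every array, while Elf5, like Cdx2, was at background on all of them. The median signal of the arrays, 34.2 to 39.8, also lay above the background controls, 9.1 to 17.2. The share of all genes above background was not counted, so the 14 are not read as particular to these regulators. Msx2, a homeobox gene, measured 37.9 and 52.1 in wild type and between 23.5 and 36 on the null arrays (log2 difference -0.64 ± 0.21, SE, limma adjusted p = 0.302). Ets2, a factor that sustains trophoblast stem cells, measured 58 and 58.2 in wild type and between 40.1 and 52.6 on the null arrays (-0.33 ± 0.11, SE, adjusted p = 0.317). Sfmbt2, an imprinted Polycomb gene of the placenta read by probe set 100706_f_at, measured 329.5 and 333.4 in wild type and between 404.1 and 538.5 on the null arrays (0.4 ± 0.14, SE, adjusted p = 0.328). For these 3 genes, named for their small p-values, the null arrays did not overlap the wild-type arrays, and none passed. Of all 7453 probe sets tested, 12.0% had all 4 null arrays below both wild-type arrays, as Msx2 and Ets2 had. The share of all probe sets with the opposite pattern of Sfmbt2 was not counted, so that pattern is not called unusual.

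Among genes of the spongiotrophoblast and giant cells, 15 were on the array and 7 were tested, with none rising or falling, 2 positive and 5 negative differences and a median of -0.09. At background on all arrays were 6 of the 15, among them Prl7d1, Prl7a1, Prl7a2 and Prl4a1, prolactin family hormones of the placenta. The share of all genes at background was not counted. Phlda2, an imprinted gene that restrains placental growth, measured 259.4 and 276.7 in wild type and between 370.7 and 440.2 on the null arrays (0.59 ± 0.1, SE, limma adjusted p = 0.118). Its null arrays did not overlap the wild-type arrays, and the share of all probe sets with this pattern was not counted. Flt1, a VEGF receptor that the spongiotrophoblast also makes, measured 64.5 and 65.2 in wild type, 14 and 10.4 in line 1, and 9.3 and 40.7 in line 2. The 9.3 was below the background of its array (12.5), and both line 1 signals lay just above theirs (12 and 9.1), so the size of the difference depends on signals at background. Flt1 did not pass (-1.9 ± 0.48, SE, adjusted p = 0.209). The difference was -1.59 and -1.31 with pseudocounts of 8 and 16. It passed only without the array of line 2 in experiment 2, the null array with the highest signal (-2.37, adjusted p = 0.0141), and a pass that needs that array left out is not counted as a call.

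Among genes of the labyrinth and syncytiotrophoblast, 16 were on the array and 12 were tested; Igf2 fell, none rose, 2 had positive and 10 negative differences, and the median was -0.19. Igf2, a paternally expressed growth factor of fetus and placenta, measured 1713.7 and 1762.9 in wild type, 596.6 and 722.5 in line 1, and 465.1 and 485.4 in line 2 (-1.63 ± 0.12, SE, limma adjusted p = 0.00701). The call ended without the filter (adjusted p = 0.0603) and without either wild-type array (adjusted p = 0.11 without experiment 1 and 0.131 without experiment 2, the difference being -1.65 and -1.61). Among all probe sets 0.161% passed as lower and 0.295% as higher. Peg10, a retrotransposon-derived imprinted gene that the placenta needs, had a difference of -0.48 ± 0.16 (SE, adjusted p = 0.304). Pparg, Hgf and Met were at background on all arrays.

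Some markers of other cell types differed in summed signal between the groups. The summed signal of 13 mesoderm and primitive streak markers was 248 to 291 on the null arrays, against 306 and 343 for wild type, of which Wnt3 was the brightest. Of its 6 genes tested 5 had negative differences and none passed, with a median of -0.34, among them Twist1 (-0.52, limma adjusted p = 0.192), Wnt3 (-0.39, adjusted p = 0.256) and Fgf8 (-0.43, adjusted p = 0.285). Mesp1, Gsc, Foxf1 and Nkx2-5, which mark mesoderm and heart, were at background on all arrays. The list for extraembryonic endoderm, 12 genes, summed to 819 to 927 on the null arrays against 993 and 1150 for wild type, with 6 of 8 tested genes negative, none passing, and Foxa2 and Hnf4a at background. Without Sparc, its brightest gene, the other 11 summed to 331 to 464 on the null arrays against 453 and 484 for wild type, and the groups overlapped. Without Wnt3 the other 12 mesoderm markers summed to 172 to 207 against 205 and 239, and the groups overlapped as well. Of all probe sets tested, 52.7% had negative differences, and 12.0% had all 4 null arrays below both wild-type arrays. Those shares are for single probe sets, and none was counted for sums. The part of either cell type in the lower Hand1 signal was not tested.

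Other marker lists behaved differently. Feeder fibroblast markers, 11 genes, summed to 521 to 536 on the null arrays against 498 and 551 for wild type, with Prrx1 and Fap at background. Germ cell markers, 7 genes, summed to 1740 on both wild-type arrays and to between 1900 and 2480 on the null arrays. Without Ifitm3, the brightest, the other 6 summed to 676 to 788 on the null arrays against 480 and 479 for wild type. The groups did not overlap with or without Ifitm3, and how often other sets of genes separate in this way was not counted. Of the germ cell genes tested 6 of 6 were positive, from 0.01 to 0.83, and none passed, while 52.7% of all probe sets tested were negative. Tfap2c, which germ cell precursors also use, had means of 312 for wild type and 327 for the null cells. Of 10 ES cell factors, all tested, 5 had positive and 5 negative differences and none passed, with a median of 0.04.

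**Figure D3:**
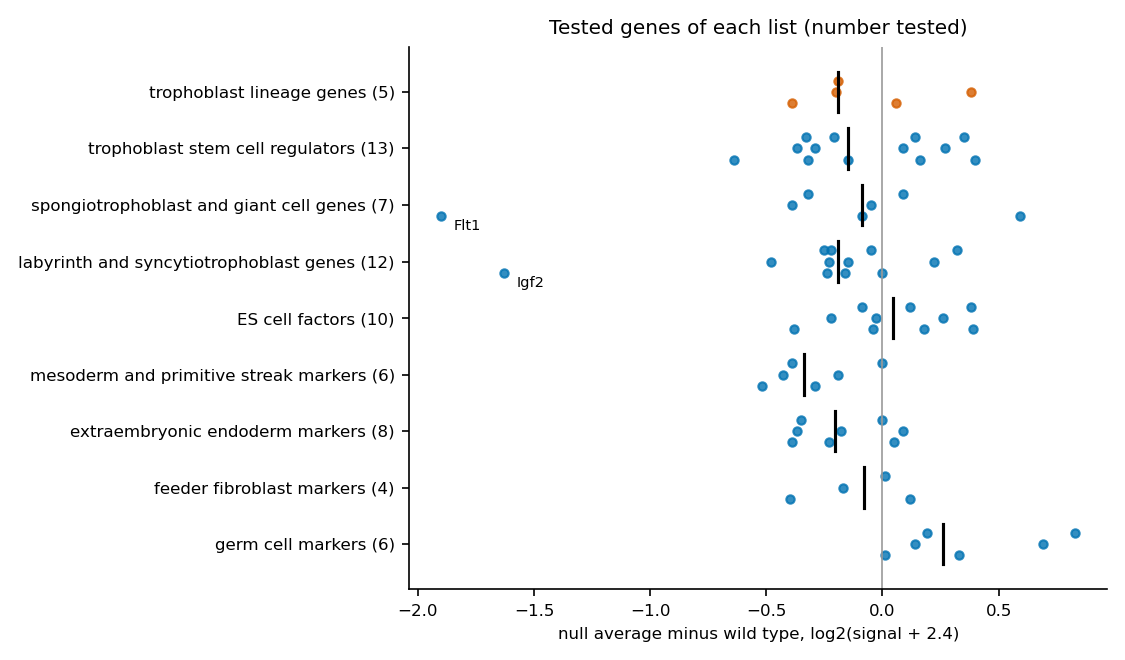
Difference between the null average and wild type on the log2(signal + 2.4) scale for each tested gene (points, spread vertically for legibility) of the trophoblast lineage genes (orange) and of the 8 other lists (blue), with the median of each list as a black bar and the number of genes tested in parentheses. Igf2 at -1.63 and Flt1 at -1.9 stand apart from the other genes, which lie between -0.64 and 0.83.

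The profile of each member over the 6 arrays was set beside those of 6725 probe sets listed with 1 gene, each centred on its own mean, by the root mean square difference of the log2 values. The profile closest to Hand1 92766_at was that of Map1lc3a, an autophagy gene (0.052), followed by Lasp1 (0.052) and Sparc, a matrix protein of the endoderm list (0.053), beside a root mean square of 0.215 for Hand1 itself. Sparc measured 540.7 and 664.2 in wild type and between 417.7 and 500.1 on the null arrays. Closest to Tfap2c were Dapk2 (0.033), Mtfr1l (0.034) and H6pd (0.041), closest to Esx1 were Itfg1 (0.063), Igbp1 (0.064) and Ndrg1 (0.067), and closest to Plac1 104201_at were Actr6 (0.067), Rbm4b (0.076) and Ocel1 (0.08). For Eomes 93880_at they were Trappc3 (0.039), Ss18l2 (0.042) and Rnf20 (0.042). For Eomes 103532_at they were Nedd4l (0.05), Slc12a7 (0.07) and Asns (0.074). For Hand1 161468_f_at, whose matches did not include Sparc, they were Ptov1 (0.08), Slc39a7 (0.08) and Mgat1 (0.103). Apart from Sparc, none of these genes belongs to a list used here. With 6 arrays and this many profiles close matches arise readily, and no test was made.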

How the data were processed

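Per the submitters' processing notes, the authors made the deposited intensity values with MAS5, 1 value per probe set and array; no version is given in the sources used here. The trimmed mean of every array (2% left out at each end) was 100.1, so the values had been scaled, and that scaling was kept. Gene names came from the platform annotation, with symbols updated through RefSeq genes (GRCm38.p6), which matched 10817 of 10833 probe sets listed with 1 gene; a further 396 were listed with several and 1193 with none. The 66 control probe sets were not tested.

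Values were analysed as log2(value + 2.4), the pseudocount being the 10th percentile of all values, so fold changes of dim genes are understated. Probe sets with a mean at or above the 40th percentile (20.9) were tested, 7453 in all. A model with the 3 line means was fitted over the 6 arrays (lmFit and eBayes of limma 3.58.1, R 4.3.3; 3 residual and 3.2 prior degrees of freedom), with Benjamini-Hochberg adjustment over all probe sets tested and a threshold of 0.05. An exact two-sided permutation test of 2 against 4 arrays could reach 0.0667 at the lowest, and the number of arrays limits the precision. Lists use the probe set with the highest mean for each gene. The procedure was tested on simulated data. Figures were drawn with matplotlib 3.10.9.

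The members, lists and tests were chosen with earlier results of these data known. Named genes are all probe sets of the members, genes of the other lists past the threshold or among their 4 smallest p-values, and the 3 closest profiles of each member above background on both arrays of a line. Outside this rule, Pou5f1, Nanog, Gata3 and Bmp8b were named after their values were seen, as were list genes named only for lying at background, among them Elf5. Pseudocounts of 8 and 16, no filter, quantile normalization, a spread that follows the signal, the experiment as a replicate block, and leaving out each array were tried.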

Additional observations from a re-analysis of the deposited data

How the results depend on the processing

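No member probe set passed adjusted p 0.05 in any of the 4 comparisons under any of the 12 alternatives, which include all 10 probe sets without the filter. In the null average Hand1 92766_at kept its sign under all 12 (-0.53 to -0.26). Omitting 1 array could not reverse it, as its groups did not overlap. Filter, block and spread settings leave differences unchanged. Hand1 161468_f_at, Esx1 and Eomes 93880_at also stayed negative, and Plac1 104201_at positive. Differences near 0 changed sign when 1 array was left out. In the null average, Tfap2c ranged from -0.02 (without line 1 replicate 2) to 0.14. In line 1, Esx1 was -0.04 without wild-type replicate 1 and -0.06 without line 1 replicate 1. In line 2, Eomes 93880_at ranged from -0.32 to 0.03 (without line 2 replicate 2) and Tfap2c from -0.11 to 0.01 (without wild-type replicate 2). Between the null lines, Eomes 93880_at was 0.05 without line 1 replicate 2 and 0.08 without line 2 replicate 1, and Hand1 161468_f_at ranged from -0.19 (without line 1 replicate 2) to 0.34 and was -0.09 without line 2 replicate 2.

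Counts over all probe sets moved more. In the null average 34 passed, against 8 without the filter, 54 with a pseudocount of 16, 101 with a spread that follows the signal, and between 7 and 13 when 1 array was left out. In line 1 it was 10, against 5 without the filter, 42 with the spread that follows the signal and between 4 and 10 without 1 array. In line 2 it was 24, against 7, 92 and between 0 and 10. Between the lines it was 2, against 0 without the filter or any 1 array and 1 with either pseudocount or with quantile normalization. The cause of these shifts was not tested, and leaving out an array also makes its group smaller.

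The experiment numbers are not stated to mark a batch. The differences between experiments 1 and 2 correlated across probe sets with r of 0.054, 0.095 and 0.074 between pairs of lines. Over all log2 signals, experiment 1 arrays of different lines correlated with r of 0.9783 to 0.9813, and those of experiment 2 with r of 0.9686 to 0.9722. The duplicate arrays of a line lay between, at 0.9762 to 0.9777. Beyond these values, whether the arrays of an experiment share more than a number was not tested. With the replicate block 14 probe sets passed in the null average and 0 between the null lines, and no member passed. Phlda2 passed with the spread that follows the signal (adjusted p = 0.0223), and the Igf2 call in the null average held in 9 of 12 alternatives, ending without the filter and without either wild-type array. Leaving the brightest gene out of each marker list was chosen after seeing the data. The null mean of the summed signal minus that of wild type then moved from -56.8 to -32 for mesoderm, from -216 to -71.3 for endoderm and from 450.0 to 258 for germ cells, and turned from 3.05 to -16.1 for feeder fibroblasts. Signals near background limit what can be said of Cdx2, Tpbpa and the dimmer probe sets of Eomes and Plac1.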

Other observations

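Gata3, a factor of the early trophoblast, was chosen after its values were seen. Its mean over all arrays of 20.3 lay just below the filter of 20.9, so it was not tested, although it was above background on all 6 arrays. It measured 24.2 and 30.5 in wild type, 18 and 16.2 in line 1, and 15.5 and 17.6 in line 2. All 4 null arrays thus lay below both wild-type arrays, a pattern that 12.0% of the 7453 probe sets tested also had. Bmp8b, a BMP ligand, also lay below the filter and measured 42 and 8.7 on the wild-type arrays, a wider spread than that between the lines.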
